A study of Brachypodium distachyon with 8 samples.

Results

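The stomatal bHLH factors of *Brachypodium distachyon* are 6 genes, ICE1, SCRM2, SPCH1, SPCH2, MUTE and FAMA. They were taken by gene identifier from the 27830 genes that the deposited tables list. The data are mRNA-seq of leaves of the inbred line Bd21-3, with 8 libraries in 4 groups of 2. Plants were wild type (WT) or carried a transgene for LITTLE NINJA (*LNJ*), a small protein related to the repressor NINJA of jasmonic acid signalling. The labels call the transgenic plants MTL-OX, and they were taken as *BdLNJ-OX*. Either genotype was sprayed with 100 μM methyl jasmonate (MeJA) in 0.15% Tween or with Tween alone (mock). The methods describe 2 spraying regimes. One had 5 sprays at intervals of 3 d over 2 wk, with plants harvested for RNA analysis 30 min after the last, and is described with qRT-PCR, and the other had 3 sprays. The paragraph on the libraries names neither. All samples were pools of 12 plants, given as 4 wk old, so a value is a pool mean. The transgene was cloned into a binary overexpression vector, 3 independent lines are mentioned, and the line behind the libraries was not named. Libraries carry the numbers 1 to 8 of their labels. By these labels, 1 and 2 are WT mock, 3 and 4 WT MeJA, 5 and 6 MTL-OX mock, and 7 and 8 MTL-OX MeJA.

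Stomata are the pores in the leaf epidermis through which gas is exchanged. Most of what is known of their development comes from *Arabidopsis*, where SPCH starts the stomatal lineage, MUTE ends its early divisions and commits the cell to become a guard mother cell, and FAMA controls the last division and the identity of the guard cells. Each of these stage factors pairs with ICE1 (also called SCREAM) or its relative SCRM2, which are present throughout the lineage. In grasses the lineage starts in cell files at the base of the growing leaf, so that stages follow each other along the blade, and in Brachypodium MUTE also moves into neighbouring cells and induces the subsidiary cells that flank a grass stoma. In *Arabidopsis* cotyledons, jasmonate has been described as a negative regulator of stomatal development. The comparisons below ask whether the factors differed with MeJA or with the genotype.

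Values are FPKM, fragments normalised to transcript length and to the mapped total, as the authors estimated them. The confidence bounds deposited beside each FPKM imply how many fragments it rests on. These came to between 13452995 and 15821699 fragments per library, and whole libraries differed in scale by median-ratio factors from 0.850 (library 5) to 1.11 (library 8). The labels were checked with *LNJ* (BRADI1G69970), which had 580.8 to 761.8 FPKM in the 4 libraries labelled WT and at most 0.834 FPKM in the 4 labelled MTL-OX. This is the opposite of what the labels state, while the names of the tables give each library the other genotype. A condition was never inferred from a level, and the grouping is that of the labels. Groups are called libraries labelled WT or labelled MTL-OX, and every direction between genotypes turns if the table names are right. A MeJA response given under either label would then belong to the other genotype, and the difference of the responses would change sign. The tables carry no names of genes by which the leaf tissue itself could be checked.

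The factors fell into 2 sets by level. The late factor FAMA and the partners ICE1 and SCRM2 were above 0 in all 8 libraries, and SPCH1, SPCH2 and MUTE were listed at 0 in all 8. FAMA was the highest, with 3.57 ± 0.765 FPKM (SD, n = 8 libraries). ICE1 followed with 1.66 ± 1.03 FPKM and SCRM2 with 1.26 ± 0.467 FPKM (SD, n = 8). The median gene above 0 had a mean of 3.68 FPKM. Among the genes above 0, FAMA stood at percentile 49.4 by its mean, ICE1 at 37.9 and SCRM2 at 34.4. FAMA exceeded SCRM2 in 8 of 8 libraries, by 1.89 to 5.63 times (exact paired permutation test over the libraries, two-sided, p = 0.00781, adjusted p = 0.0234 over 3 pairs). It exceeded ICE1 in 7 of 8 libraries, with a ratio between 0.908 and 7.08 (exact paired permutation test, p = 0.0156, adjusted p = 0.0234). The exception was library 5. ICE1 and SCRM2, neighbours in this order, did not differ beyond their spread, with ICE1 higher in 5 of 8 libraries (exact paired permutation test, p = 0.508, adjusted p = 0.508). FPKM is per length, so comparisons between genes rest on the transcript lengths used for it, which were not checked. A single fragment corresponded to 0.0898 to 0.104 FPKM for SCRM2. It corresponded to 0.0317 to 0.0381 FPKM for ICE1 and 0.0297 to 0.0353 FPKM for FAMA.

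**Figure D1:**
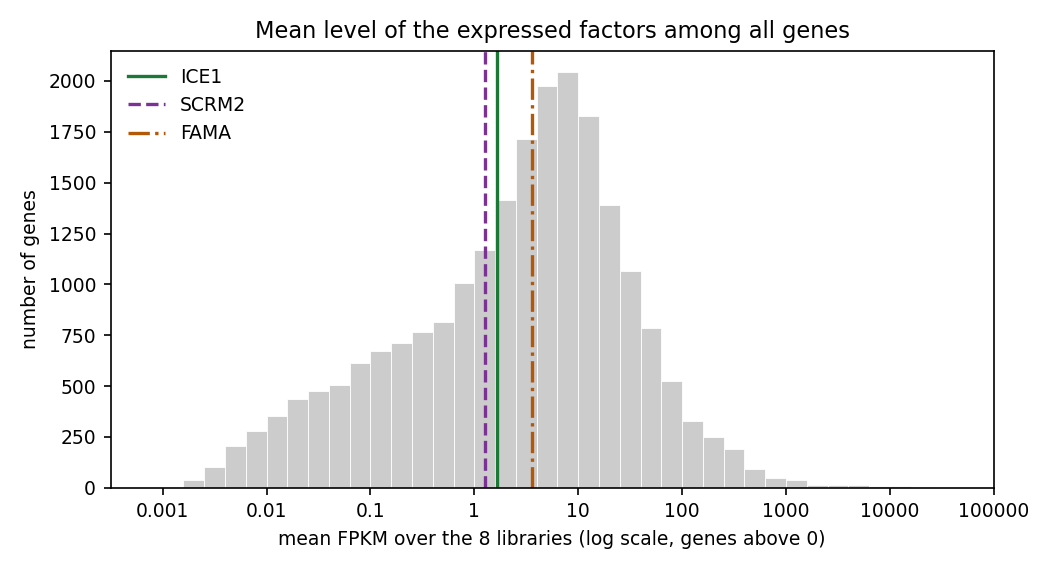
Histogram of the mean FPKM over the 8 libraries (log axis) for all genes above 0, with the number of genes on the y axis. Vertical lines mark SCRM2 at 1.26, ICE1 at 1.66 and FAMA at 3.57 FPKM, all at or below the middle of the distribution; SPCH1, SPCH2 and MUTE, at 0, cannot be drawn on this axis.

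SPCH1 (BRADI1G38650), one of the Brachypodium genes for the factor that starts the lineage, is listed on chromosome 1 from 34884507 to 34887128. It was listed at 0 in every library, as was SPCH2 (BRADI3G09670), the other such gene, on chromosome 3 from 7834530 to 7836847. MUTE (BRADI1G18400), at 14768332 to 14769148 of chromosome 1 and only 817 bp long, was also listed at 0 in all 8 libraries. The libraries hold 116588131 implied fragments together. Counts of fragments were not given, and a listed 0 was taken as no fragment. Both bounds were 0 and the status was OK for each of the 3 genes in each library. A listed 0 is not rare, since 5926 genes (21.3%) were at 0 in all 8 libraries, and it is not always an absence, since 82 genes at 0 in some library had at least 50 fragments in another. For scale, 3 fragments are what a count of 0 still allows, if a listed 0 is such a count. They corresponded to a median of 0.126 FPKM (upper quartile 0.184) among the genes with a locus within 10% of the length of SPCH1. The same figures were 0.128 FPKM (upper quartile 0.198) at the length of SPCH2 and 0.267 FPKM (upper quartile 0.304) at that of MUTE. Genes were matched by locus and not by transcript length. The medians and quartiles are below the lowest value of any expressed factor, 0.574 FPKM for ICE1 in library 8. Among genes of like locus length, 13.1%, 15.1% and 31.7% were at 0 in all 8 libraries for SPCH1, SPCH2 and MUTE. The early factors were thus listed at 0 in every group, and no difference with MeJA or genotype could be tested for them.

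The genes listed beside the factors differed widely in level. SPCH2 lies 1463 bp from BRADI3G09660, which had 262 to 518 FPKM, and MUTE lies 892 bp from BRADI1G18407, which had 5.32 to 15.9 FPKM. On the other side of MUTE, at 1163 bp, BRADI1G18390 was at 0 in 4 libraries and at most 0.0707 FPKM in the rest. SPCH1 stands alone, with 26610 bp and 30218 bp to its neighbours, both of which were above 0 in 8 of 8 libraries. The listed neighbours of FAMA, at 11183 bp and 1543 bp, were at 0 in 7 libraries and in all 8, and both neighbours of ICE1, at 43957 bp and 75382 bp, were at 0 in all 8. SCRM2 lies 2090 bp from BRADI2G59490, which had 4.89 to 7.40 FPKM, and 5768 bp from BRADI2G59510, which had 6.46 to 7.58 FPKM. No other listed gene overlaps any of the 6 loci.

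ICE1 (BRADI4G17460) lies on chromosome 4 between 18822981 and 18825999 and spans 3019 bp. It had 1.22 and 1.75 FPKM in libraries 1 and 2 (labelled WT, mock), and 0.781 and 1.31 FPKM in libraries 3 and 4 (labelled WT, MeJA). In libraries 5 and 6 (labelled MTL-OX, mock) it had 3.92 and 1.78 FPKM, and in libraries 7 and 8 (labelled MTL-OX, MeJA) 1.97 and 0.574 FPKM. Library 5 stood highest and library 8 lowest, both with the same genotype label. ICE1 was the most variable of the expressed factors, with a coefficient of variation of 62.3% over the 8 libraries, against 37.0% for SCRM2 and 21.4% for FAMA. Its values rest on 15.4 to 115 implied fragments, none of which was whole within 0.05. The confidence bounds of the replicates did not overlap in 2 of the 4 groups, and there the replicates differed by 2.21 times (libraries 5 and 6) and by 3.42 times (libraries 7 and 8). The spread of ICE1 between replicates therefore went beyond the deposited bounds in those libraries, which were read as error of counting. The share of all genes whose replicate bounds do not overlap was not computed, so this cannot be called particular to ICE1.

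**Figure D2:**
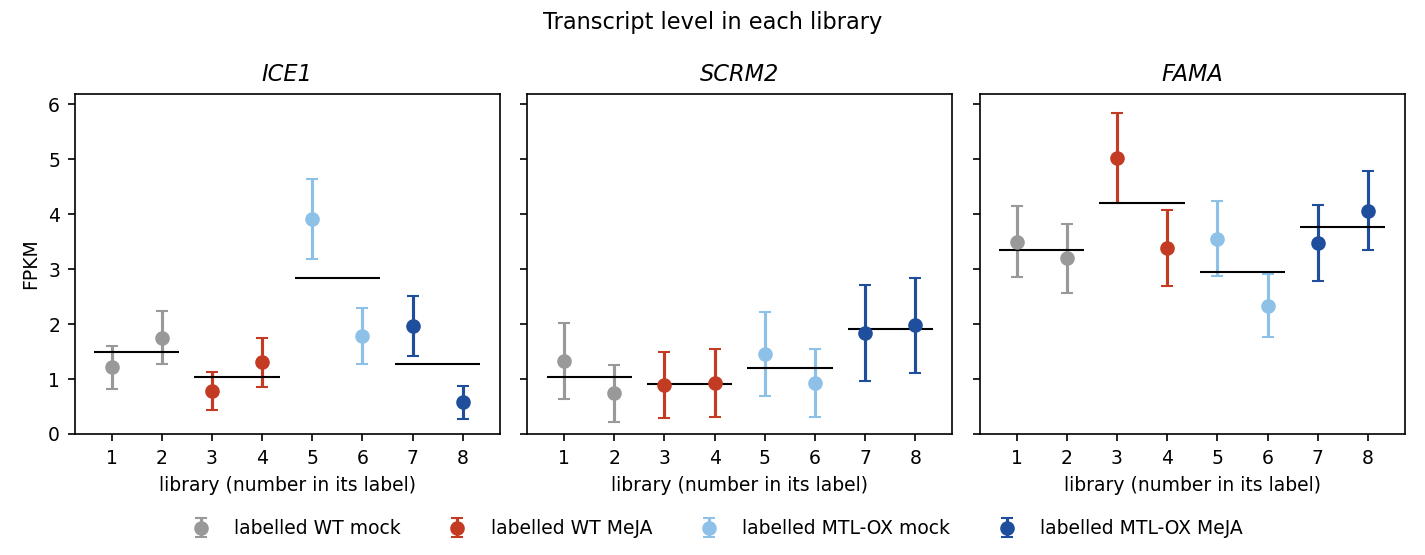
FPKM of ICE1, SCRM2 and FAMA in each of the 8 libraries (x axis, numbered as in the labels), coloured by labelled group; bars are the deposited confidence bounds and black lines the mean of the 2 libraries of a group. ICE1 ranges from 0.574 to 3.92, SCRM2 from 0.738 to 1.98 and FAMA from 2.33 to 5.03 FPKM.

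SCRM2 (BRADI2G59497) is listed on chromosome 2 from 57180604 to 57182810. It had 1.32 and 0.738 FPKM in libraries 1 and 2, and 0.893 and 0.927 FPKM in libraries 3 and 4. It had 1.46 and 0.932 FPKM in libraries 5 and 6, and 1.84 and 1.98 FPKM in libraries 7 and 8. The MeJA-treated libraries labelled MTL-OX were the highest of all 8. They rest on 18.0 and 21.0 fragments, against 9 in each of the MeJA-treated libraries labelled WT. SCRM2 had the fewest fragments of the expressed factors, 8 to 21.0 per library, and 1 fragment corresponded to 0.0898 to 0.104 FPKM. The bounds of its replicates, wide at so few fragments, overlapped in all 4 groups.

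FAMA (BRADI2G22810), the guard cell factor, is listed on chromosome 2 from 20316509 to 20320295. It had 3.50 and 3.20 FPKM in libraries 1 and 2, and 5.03 and 3.39 FPKM in libraries 3 and 4. In libraries 5 and 6 it had 3.56 and 2.33 FPKM, and in libraries 7 and 8 3.48 and 4.07 FPKM. The lowest library was mock-treated and the highest MeJA-treated, with the other 6 between 3.20 and 4.07 FPKM. FAMA was the best measured of the factors, from 66.1 to 149 fragments. The bounds of the replicates did not overlap in 1 of 4 groups, libraries 3 and 4, which differed by 1.48 times. Here too the share of all genes was not computed.

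None of the 3 expressed factors passed the test in any comparison. limma was fitted to log2(FPKM + 1) of 14922 genes, those averaging 1 FPKM or more, with Benjamini-Hochberg adjustment over them. Calls needed an adjusted p of 0.05 or lower together with a 2-fold or larger change, and SE is the standard error of a log2 fold change. Fold changes on this scale understate the change of genes as low as these. MeJA against mock called 0 of the 3 factors in the libraries labelled WT, where 0.0335% of all tested genes were called, and 0 of 3 in those labelled MTL-OX, where 0.0737% were. Labelled MTL-OX against labelled WT called 0 of 3 in mock-treated libraries (0.0804% of all genes) and 0 of 3 in MeJA-treated ones (0.0536%). The difference of the MeJA responses called 0 of 3 (0.0134%). With 4 against 4 libraries, MeJA against mock called 0 of 3 (0.188%) and labelled MTL-OX against labelled WT 0 of 3 (1.11%). Before adjustment, 1 of 3 factors had a p below 0.05 in 1 of the 7 comparisons, SCRM2 between the MeJA-treated libraries, where 17.0% of all genes did. In the other 6 comparisons 0 of 3 did. The shares of all genes there were 5.99% and 18.9% for MeJA in the libraries labelled WT and MTL-OX, 21.1% between genotypes in mock, 6.34% for the difference of responses, and 16.5% and 29.1% for MeJA and genotype with 4 against 4 libraries. With limma's voom on the implied fragments, no factor was called and none had an unadjusted p below 0.05. In bulk leaf RNA, fewer cells that express a gene and less of its RNA per cell cannot be told apart.

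Overlap of the groups was read against all genes as well. SCRM2 with MeJA in the libraries labelled MTL-OX lay wholly above mock (40.4% of all genes did, and 6.51% lay below), ICE1 in mock lay wholly above in the libraries labelled MTL-OX (9.06%, with 43.3% below), and SCRM2 did so in MeJA (24.7%, with 30.8% below). MeJA in the libraries labelled WT separated none of the 3 factors (23.9% of all genes lay above mock and 16.1% below). With 4 against 4 libraries none of the 3 was separated by MeJA (6.97% above, 1.05% below) or by genotype (2.85% above, 14.1% below).

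SCRM2 had its lowest unadjusted p between genotypes in the presence of MeJA. It was 1.91 ± 0.0991 FPKM in the libraries labelled MTL-OX and 0.910 ± 0.0241 FPKM in those labelled WT (SD, n = 2), and the groups did not overlap. The log2 fold change was 0.61 (SE 0.22, 95% interval 0.10 to 1.12, unadjusted p = 0.0264, limma adjusted p = 0.254). The other settings gave log2 fold changes from 0.61 to 0.99 and adjusted p-values from limma between 0.104 and 0.383. Leaving out each library in turn gave log2 fold changes from 0.57 to 0.64 and adjusted p-values from limma between 0.143 (without library 6) and 0.682 (without library 3). In mock-treated libraries SCRM2 overlapped between the genotypes, at a log2 difference of 0.12 (SE 0.22, limma adjusted p = 0.772). Over both treatments it was 1.55 ± 0.469 against 0.970 ± 0.249 FPKM (SD, n = 4), and the log2 difference was 0.36 (SE 0.17, limma adjusted p = 0.197, the lowest adjusted p of the 3 factors in the 7 comparisons), with overlapping values.

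In the libraries labelled MTL-OX, SCRM2 had 1.91 ± 0.0991 FPKM with MeJA and 1.20 ± 0.375 FPKM with mock (SD, n = 2), without overlap. The log2 fold change of 0.42 (SE 0.22, 95% interval −0.10 to 0.93) did not pass the test (limma adjusted p = 0.340). In this comparison the median log2 fold change of all genes was 0.18, and with median-ratio scaling that of SCRM2 was 0.28. In the libraries labelled WT, SCRM2 had a log2 fold change with MeJA of −0.07 (SE 0.22, 95% interval −0.58 to 0.44). The difference of these responses was 0.49 (SE 0.30, 95% interval −0.23 to 1.21, limma adjusted p = 0.815).

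For ICE1 the value with MeJA was below that with mock under both genotype labels, without passing the test. Over both genotypes it had 1.16 ± 0.621 FPKM with MeJA and 2.17 ± 1.20 FPKM with mock (SD, n = 4), and the values overlapped. The log2 fold change was −0.53 (SE 0.27, 95% interval −1.15 to 0.09, limma adjusted p = 0.368). It was −1.03 with voom, −0.85 with a pseudocount of 0.1, −0.32 without library 5 and −0.30 without library 8. It was −0.29 (SE 0.39, 95% interval −1.21 to 0.64) in the libraries labelled WT and −0.77 (SE 0.39, 95% interval −1.70 to 0.15) in those labelled MTL-OX. With 1 library left out, the latter lay between −1.23 (without library 7) and −0.32 (without library 8), and with voom it was −1.41. Between mock-treated libraries, both labelled MTL-OX lay above both labelled WT, but the distance was small, from 1.75 FPKM in library 2 to 1.78 FPKM in library 6, and the log2 fold change of 0.58 (SE 0.39, limma adjusted p = 0.396) did not pass the test. The median of all genes was −0.19 in this comparison, and scaling by median ratios moved ICE1 to 0.74. Without library 5 it was 0.17, and without library 6 it was 0.99. The intervals of ICE1 within a genotype or a treatment reach beyond a 2-fold change in at least 1 direction, so that a change of that size is not excluded by these libraries.

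**Figure D3:**
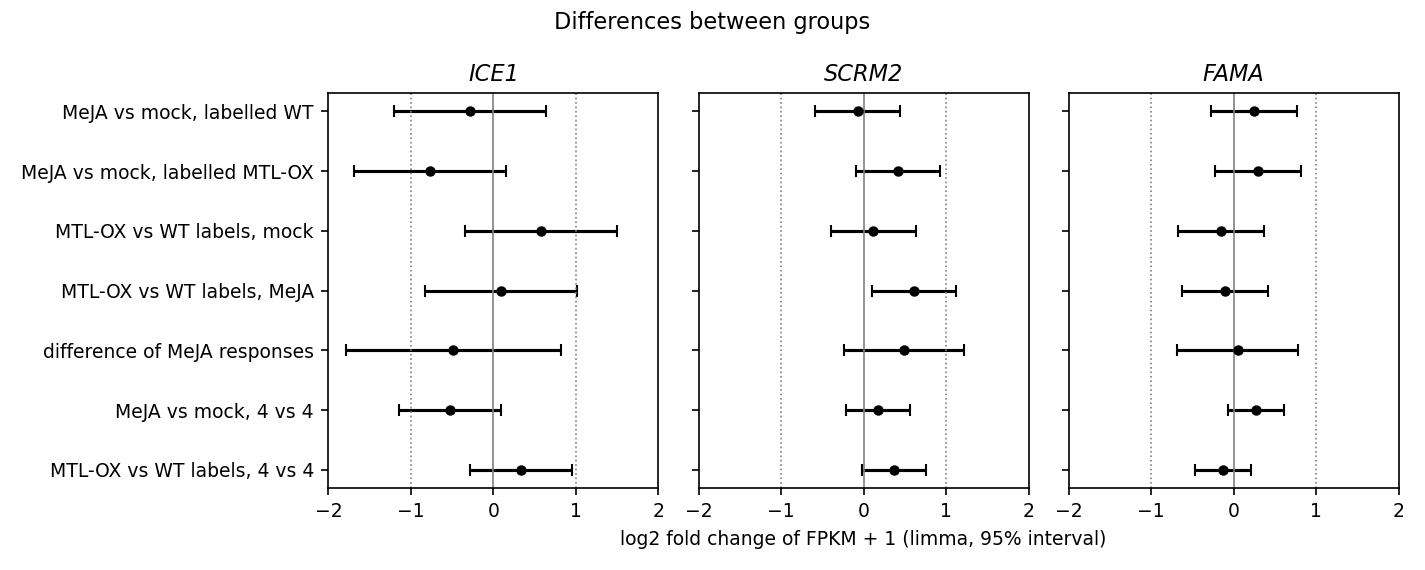
Log2 fold changes of FPKM + 1 (x axis) for ICE1, SCRM2 and FAMA in the 7 comparisons (y axis), as points with 95% intervals from limma; dotted lines mark a 2-fold change. The intervals include 0 in every case except SCRM2 between MeJA-treated libraries (0.10 to 1.12), and those of ICE1 are the widest.

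FAMA did not pass the test either. Over both genotypes it had 3.99 ± 0.754 FPKM with MeJA and 3.15 ± 0.566 FPKM with mock (SD, n = 4). The log2 fold change was 0.27 (SE 0.15, 95% interval −0.07 to 0.60, limma adjusted p = 0.398), where the median of all genes was 0.11, and it was 0.16 after scaling by median ratios. It was 0.24 in the libraries labelled WT (SE 0.22) and 0.29 in those labelled MTL-OX (SE 0.22), with a difference between them of 0.05 (SE 0.31, limma adjusted p = 0.985). Without library 3, the value in those labelled WT was 0.014. Labelled MTL-OX against labelled WT gave −0.13 over both treatments (SE 0.15, 95% interval −0.47 to 0.20, limma adjusted p = 0.594). After scaling, it was −0.036. The 7 intervals of FAMA stayed within a 2-fold change of FPKM + 1, which corresponds to a larger change of FPKM itself.

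The balance of the partners was compared within libraries, because a ratio of FPKM within a library does not depend on its scale. ICE1 was 0.921 and 2.38 times SCRM2 in libraries 1 and 2, and 0.874 and 1.41 times in libraries 3 and 4. In the libraries labelled MTL-OX, it was 2.68 and 1.91 times SCRM2 after mock treatment and 1.07 and 0.290 times after MeJA. SCRM2 thus had the higher value in libraries 1, 3 and 8, and ICE1 in the other 5. The confidence bounds of the 2 genes overlapped in libraries 1, 3, 4, 6 and 7, and not in libraries 2, 5 and 8. SCRM2 rests on 8 to 21.0 fragments per library. The log2 ratio was −0.35 ± 1.0 with MeJA and 0.87 ± 0.69 with mock (SD, n = 4), a difference of −1.22 that did not pass the test (exact permutation test over libraries, two-sided, p = 0.0857, adjusted p = 0.171 over 2 comparisons, where 0.0286 is the smallest p possible). Between genotypes the difference was −0.19 (exact permutation test, p = 0.83, adjusted p = 0.83).

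Set beside FAMA, the partners together were below it in some libraries and above it in others. The sum of ICE1 and SCRM2 was 1.67 to 5.38 FPKM per library, with a median of 2.55 FPKM. FAMA was 1.28 to 3.01 times this sum in the 4 libraries labelled WT and 0.661 to 1.59 times in the 4 labelled MTL-OX. These ranges overlap through library 8 alone. By treatment, FAMA was 0.661 to 1.38 times the sum with mock and 0.915 to 3.01 times with MeJA. The ratio was formed after the values had been seen and was not tested. FAMA was below the summed partners in libraries 5, 6 and 7, and above them in the other 5.

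**Figure D4:**
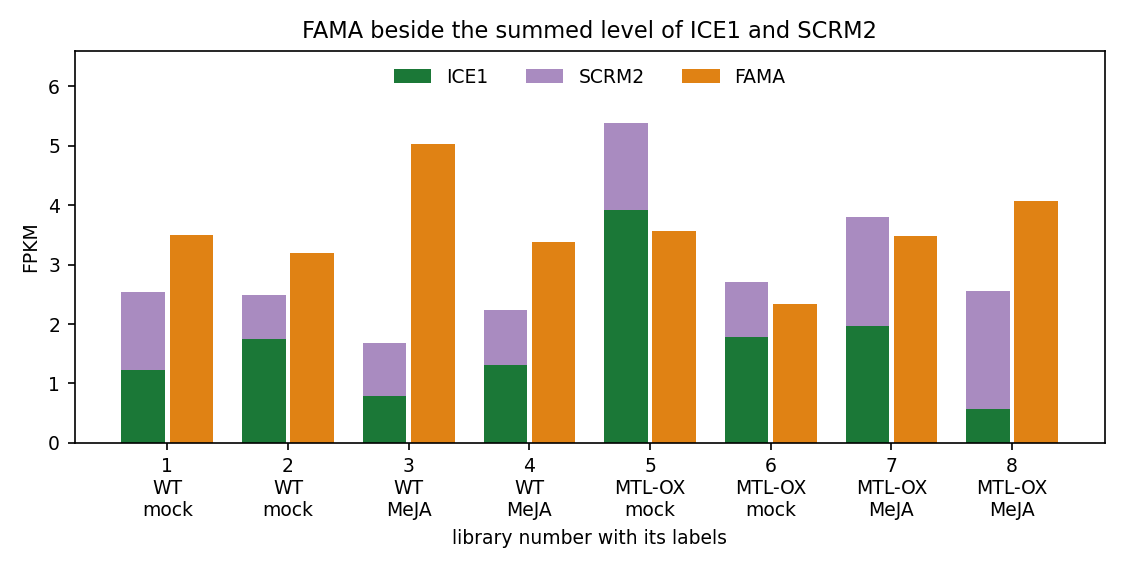
FPKM per library (x axis, with its labels) of ICE1 and SCRM2, stacked, beside FAMA. FAMA exceeds the stacked partners in all 4 libraries labelled WT and in library 8, and the sum is highest in library 5, at 5.38 FPKM.

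None of the relations among the levels of the expressed factors passed a test over the 8 libraries. Of 3 relations among them in log2(FPKM + 1), that of ICE1 and FAMA had a Pearson r of −0.45 (exact permutation test, p = 0.258, adjusted p = 0.773) and a Spearman rho of −0.48 (exact permutation test, p = 0.243, adjusted p = 0.642) over the 8 libraries. Without libraries 5 and 8, the farthest from the median of ICE1, r was −0.77. Libraries to leave out were chosen from these same values, and no r without them was tested. ICE1 and SCRM2 had r = −0.0045 (exact permutation test, p = 0.980, adjusted p = 0.980) and rho = 0.071 (exact permutation test, p = 0.882, adjusted p = 0.882), and r = 0.31 without libraries 5 and 8. SCRM2 and FAMA had r = 0.22 (exact permutation test, p = 0.607, adjusted p = 0.910) and rho = 0.33 (exact permutation test, p = 0.428, adjusted p = 0.642), and r = 0.071 without libraries 7 and 8. The libraries belong to 4 groups and share their scale factors within each point, and groups of 2 allow no relation within a group.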

How the data were processed

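The authors aligned read pairs with TopHat2 in Galaxy and deposited, per sample, the FPKM of each gene from Cufflinks with its confidence bounds. The genome assembly is not given in the sources used here, and coordinates are those of the tables, written from 1. Rows with the same identifier were summed (27833 rows, 27830 genes). Implied fragments were taken as (2 FPKM/(upper bound − FPKM)) squared. Of values under 20 fragments, 82.7% to 84.0% per library were whole within 0.05. The bounds were taken to cover counting error only.

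limma 3.58.1 (limma-trend, R 4.3.3) was run on log2(FPKM + 1) of the 14922 genes averaging 1 FPKM or more, over the 4 groups or, for 4 against 4 libraries, adding the second factor to the model. Benjamini-Hochberg adjustment was over these genes. The fit was tested on simulated data. The changes planted there were larger than those of the factors and lay in genes above ICE1 and SCRM2 in level. Power for changes of the factors was not tested. Permutation tests used scipy 1.17.1. The 2 samples of a group are described as biological replicates; how they were grown apart is not given in the sources used here.

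Members, lists and tests were chosen with earlier results of these data known. Named genes are the 6 factors, *LNJ*, listed neighbours (added after the values were seen) and, per expressed factor, the 2 genes of most similar course. Lists of stomatal signalling, guard cell, leaf and dividing-cell genes, a search for related proteins and promoter motifs had been planned; the reference used here pairs no description or sequence with the identifiers, so none was analysed here. Alternatives were a pseudocount of 0.1, no filter, a mean of at least 5 FPKM, median-ratio scaling, only the libraries of a comparison, voom on implied fragments, a threshold of 0.001 on the adjusted p-value, and each library left out.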

Additional observations from a re-analysis of the deposited data

Results flagged for a closer look

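FAMA had 5.03 FPKM in library 3 (labelled WT, MeJA), far above the next of the 4 libraries labelled WT, which had 3.50 FPKM. It was flagged as a sample apart from the others of its set. These 4 libraries hold both treatments. Of 12 sets of 4 libraries examined for the expressed factors, this was the 1 flagged, and chance flags about 1 in 20.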

How the results depend on the processing

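No factor was called under any alternative that gave it a value; a mean of at least 5 FPKM left none of the factors in the fit. Of the log2 fold changes of the 3 expressed factors, 114 of 117 kept their direction under other settings. Those that turned were FAMA between mock-treated libraries (0.016 scaled by median ratios), FAMA in the difference of the MeJA responses (−0.11 scaled by median ratios) and ICE1 between MeJA-treated libraries (−0.0052 with voom). The 0.001 threshold, no filter, and only the libraries of a comparison could not move a log2 fold change. Part of the 117 were thus fixed in advance. With each library left out, 157 of 168 kept their direction. The others belong to SCRM2 with MeJA in those labelled WT (−0.28 to 0.14) and between mock-treated libraries (−0.091 to 0.33), to FAMA between mock-treated (−0.38 to 0.069) and between MeJA-treated libraries (−0.34 to 0.12) and in the difference of responses (−0.18 to 0.28), and to ICE1 between MeJA-treated libraries (−0.36 to 0.55). Leaving out a library of neither group compared could not move a value, so part of the 157 were fixed in advance. A lone library left in a group was assumed to vary like the rest. The lowest adjusted p-value from limma over these fits was 0.0746. Without 1 library, the difference in the log2 ratio of ICE1 to SCRM2 ranged from −1.55 to −0.74 with MeJA and from −0.61 to 0.46 between genotypes, where it turned without library 2 or 8. With a pseudocount of 1 these differences were −0.70 and −0.026. The cause was not tested.

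Counts over all genes moved more. They are given for the settings that kept a factor in the fit, so not for a mean of at least 5 FPKM. From 5 and 11 genes called with MeJA in those labelled WT and MTL-OX, they ranged from 0 to 19 and from 0 to 43. From 12 and 8 between genotypes in mock- and MeJA-treated libraries they ranged from 2 to 676 and from 1 to 21, from 2 for the difference of responses from 0 to 10, and from 28 and 165 with 4 against 4 libraries from 0 to 50 and from 7 to 704. The highest counts between genotypes, 676 and 704, were those without library 6. No paired analysis was possible because the groups share no replicate number. The values of SCRM2 rest on 8 to 21.0 fragments per library, the fewest of the expressed factors.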

Other observations

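The genes whose log2(FPKM + 1) ran most like that of a factor over the 8 libraries were picked from 14922, so that high values of r were bound to be found. For ICE1 these were BRADI4G07440 (Pearson r = 0.95, Spearman rho = 0.95, 539 to 764 FPKM) and BRADI3G34517 (r = 0.95, rho = 0.98, 132 to 248 FPKM). For SCRM2 they were BRADI5G19560 (r = 0.98, rho = 0.81, 25.6 to 33.8 FPKM) and BRADI3G35800 (r = 0.97, rho = 0.86, 23.5 to 41.8 FPKM), and for FAMA BRADI3G28857 (r = 0.97, rho = 0.90, 1.98 to 4.05 FPKM) and BRADI5G18390 (r = 0.95, rho = 0.55, 3.60 to 6.44 FPKM). An r above 0.9 was reached by 24 genes with ICE1, 98 with SCRM2 and 21 with FAMA. The tables give no name for these identifiers.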
